A study of Homo sapiens with 13 samples.

Results

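Transcripts of 42 proteasome genes were examined in 13 untreated acute lymphoblastic leukemia (ALL) cell lines, 7 of T-cell origin (T-ALL) and 6 of B-cell precursor origin (BCP-ALL). The members were all genes whose symbol begins with PSMA, PSMB, PSMC, PSMD, PSME, PSMF or PSMG and a number, taken from probe sets that name a single gene, and they were 42 of the 18568 genes on the table. A further 6 human proteasome genes, PSMA6, PSMB11, PSMC5, PSMD7, PSMD13 and PSME2, were not analysed here. T-ALL was represented by Jurkat, Molt4, CCRF-CEM, ALL-SIL, HPB-ALL, TALL-1 and P12-ICHIKAWA, and BCP-ALL by REH, 697, RS4,11, Nalm6, Nalm30 and Nalm16. Every line had received no drug and was measured once, on 1 HG-U133 Plus 2.0 array, so a lineage is a set of single established lines and a p-value here reflects how much lines of a lineage differ among themselves. Values are log2 of the array signal plus 16, which makes 4 the lowest possible value, and a difference of 1 is a 2-fold difference in that offset signal. A value under 5 counts as near the floor. Signals of different probe sets cannot be compared with each other, so levels are compared between lines within a gene.

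The proteasome is the protease that degrades ubiquitin-tagged proteins. Its 20S core is a barrel of outer rings of alpha subunits, which gate the channel, and inner rings of beta subunits, of which PSMB5, PSMB6 and PSMB7 carry the cutting sites. A 19S cap, with a base of ATPases (PSMC genes) and further subunits (PSMD genes), recognises, unfolds and feeds in the substrate, and dedicated chaperones (PSMG genes, PSMD5, PSMD9 and PSMD10) help to assemble both parts. In lymphoid cells, and in other cells after exposure to interferon gamma, PSMB8, PSMB9 and PSMB10 replace PSMB5, PSMB6 and PSMB7 in newly made cores. The resulting immunoproteasome cuts proteins into peptides suited to MHC class I molecules, and the 11S activator made of PSME1 and PSME2 opens it. Interferon gamma acts on these genes largely through the transcription factor IRF1. Proteasome inhibitors act on the PSMB5 site and are used against lymphoid malignancies.

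To show the control regions next to the results, the 250 bases upstream of the RefSeq start (GRCh38.p14) were searched on both strands for the cores of 4 elements. These were the interferon-stimulated response element (GAAA repeated after a gap of 2 bases), the gamma-activated site (TTCNNNGAA), the antioxidant response element (TGACNNNGC) and the CCAAT box (CCAAT). The genes printed are those with the closest shared pattern over the lines that held a match in a window overlapping no other gene, and capitals mark the matches.
PSMB9, chr6:32853942-32854191, plus strand: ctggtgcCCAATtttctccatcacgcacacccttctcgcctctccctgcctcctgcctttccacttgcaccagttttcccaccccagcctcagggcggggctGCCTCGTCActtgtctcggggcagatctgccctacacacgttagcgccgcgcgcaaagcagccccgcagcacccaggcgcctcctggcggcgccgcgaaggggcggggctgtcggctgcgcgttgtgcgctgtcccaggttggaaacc
PSMB10, chr16:67936851-67937100, minus strand: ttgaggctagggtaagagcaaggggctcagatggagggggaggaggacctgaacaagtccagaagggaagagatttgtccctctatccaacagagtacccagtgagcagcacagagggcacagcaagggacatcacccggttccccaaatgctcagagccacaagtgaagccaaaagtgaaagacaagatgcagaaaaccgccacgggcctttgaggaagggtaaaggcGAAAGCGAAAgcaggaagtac
PSME1, chr14:24135944-24136193, plus strand: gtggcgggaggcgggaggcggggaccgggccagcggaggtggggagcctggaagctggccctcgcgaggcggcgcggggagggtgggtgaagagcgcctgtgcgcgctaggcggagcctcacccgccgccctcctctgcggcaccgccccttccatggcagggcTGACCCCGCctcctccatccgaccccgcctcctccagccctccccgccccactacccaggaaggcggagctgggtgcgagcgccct
PSMB9 held a CCAAT box 243 to 239 bases before its start and, on the opposite strand, an antioxidant core 148 to 140 bases before it. PSMB10 held the interferon-stimulated core GAAAGCGAAA 21 to 12 bases before its start, and PSME1 an antioxidant core 86 to 78 bases before its own. For PSMB8 the window of its outer start, which overlaps the antisense gene PSMB8-AS1, held no match, and that of its inner start, which lies inside the longer PSMB8 transcript, held the gamma-activated core TTCTCGGAA 65 to 57 bases before it. No matches overlapped in these genes. Among 36 members with a window, the interferon-stimulated core was present in 4 (PSMA4, PSMB4, PSMB10 and PSMG4; 11.1%), against 3.71% of all 27305 genes. The gamma-activated core was present in 7 (19.4%, against 8.09%), the antioxidant core in 11 (30.6%, against 13.2%) and CCAAT in 16 (44.4%, against 37.0%). A match shows only that these letters occur in the window.

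All 42 members passed the filter on low expression, which 12560 genes met by lying above the array median in 3 or more lines. Array medians ran between 5.15 and 5.32 in T-ALL and between 5.05 and 5.37 in BCP-ALL. The lineage labels were borne out, since 9 of 11 T-lineage markers were called higher in T-ALL and 9 of 9 B-lineage markers were called lower. Of 4 tested myeloid markers none was called, although LYZ reached 11.20 in Nalm6 and MPO 12.11 in REH. Arrays of P12-ICHIKAWA and TALL-1 correlated at 0.993 over all probe sets, those of Nalm16 and Nalm30 at 0.959 and those of Jurkat and Molt4 at 0.956. The 13 lines are thus not 13 equally distinct cell populations. Over the 42 members P12-ICHIKAWA and TALL-1 differed on average by 0.12 log2 units, with a maximum of 0.36. They are the most alike pair of arrays, so this difference is a low extreme and no estimate of technical error.

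**Figure D1:**
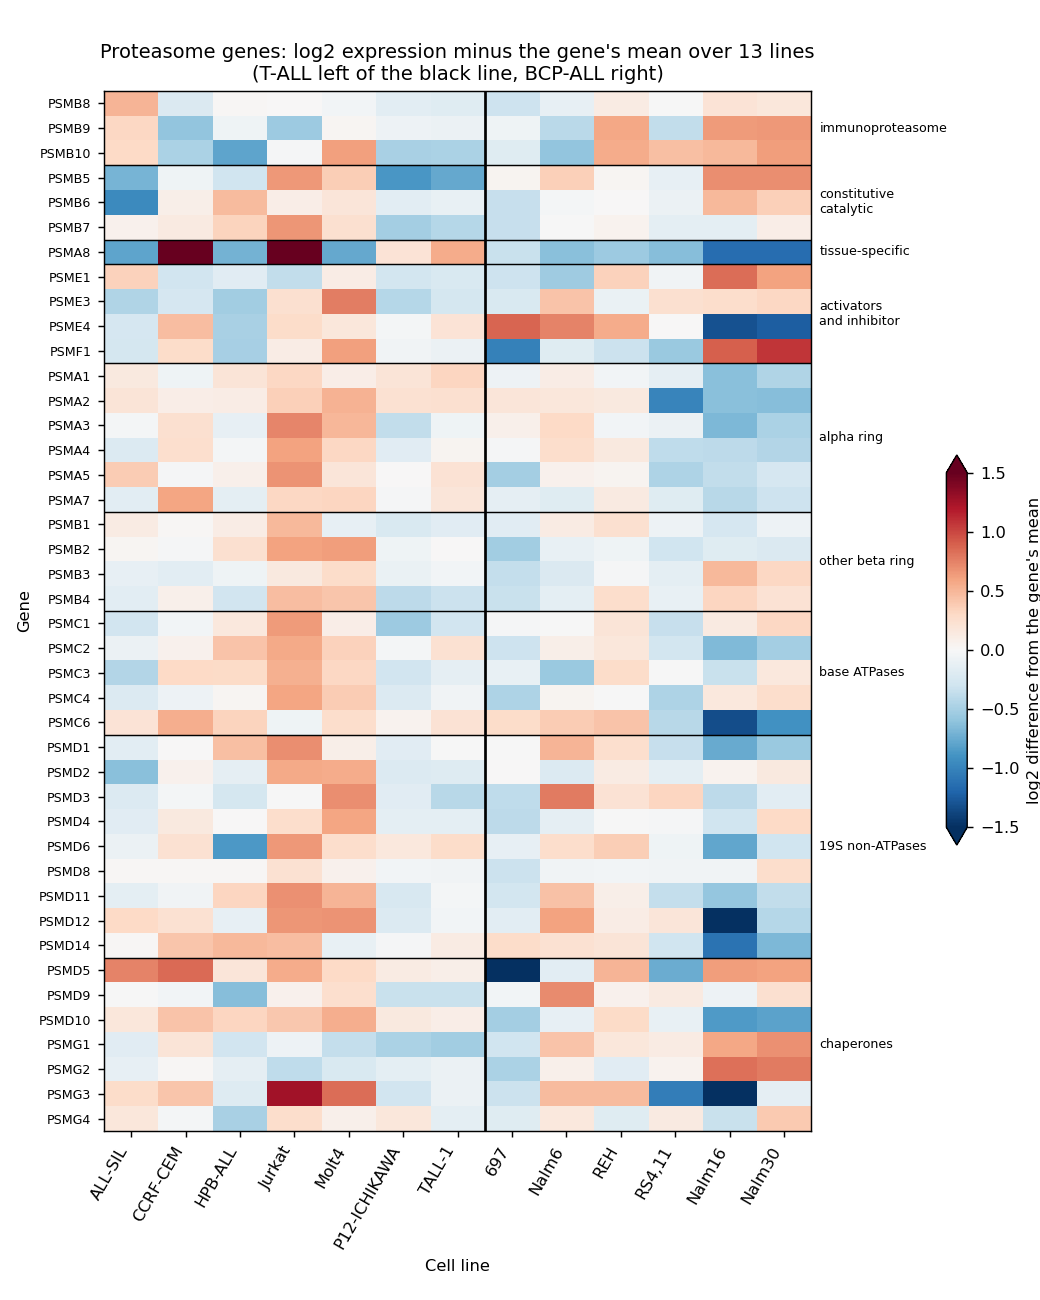
Log2 expression of the 42 proteasome genes (rows, grouped by role) in each cell line (columns, T-ALL left and BCP-ALL right of the black line), as the difference from the gene's mean over the 13 lines. Colors are clipped at 1.5 log2 units in either direction. Jurkat is above the mean for most rows, Nalm16 and Nalm30 are shifted together, and PSMA8 and PSMD5 hold the most extreme single tiles.

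The immunoproteasome subunits were expressed well above the floor in every line, and they divided the lines in a way that cut across lineage. PSMB9, the immunoproteasome counterpart of PSMB6, was lowest in CCRF-CEM (9.41), lay at a median of 9.93 and was highest in ALL-SIL (10.31) in T-ALL, against a lowest value of 9.59 in Nalm6, a median of 10.26 and a highest value of 10.65 in Nalm30 in BCP-ALL. REH (10.58) and Nalm16 (10.64) were as high as Nalm30, whereas Jurkat (9.46) and RS4,11 (9.63) were among the low lines. PSMB10, which takes the place of PSMB7, ran between 8.46 in HPB-ALL and 9.87 in Molt4 in T-ALL, with a median of 8.78, and between 8.66 in Nalm6 and 9.88 in Nalm30 in BCP-ALL, with a median of 9.73. Only ALL-SIL (9.56), Molt4 (9.87) and Jurkat (9.24) of the T-ALL lines exceeded 9, and only Nalm6 of the BCP-ALL lines did not. PSMB8, which takes the place of PSMB5, varied least of the 3, with 9.86 to 10.59 and a median of 10.03 in T-ALL, against 9.76 to 10.28 and a median of 10.13 in BCP-ALL. ALL-SIL stood alone at the top, as the next T-ALL line, HPB-ALL, had 10.09. The ranges of the lineages overlapped for each of these genes.

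No lineage difference of the immunoproteasome subunits passed the test. The test was limma over all 12560 genes, T-ALL minus BCP-ALL, with adjusted p-values, and it called 7.63% of all genes. The difference was -0.42 for PSMB10 (95% interval -1.0 to 0.17, adjusted p = 0.344 by limma), -0.32 for PSMB9 (-0.81 to 0.18, adjusted p = 0.40) and -0.01 for PSMB8 (-0.34 to 0.31, adjusted p = 0.964). A p that misses the threshold does not show equal levels, and the interval of PSMB10 reaches to a difference of 1 log2 unit.

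Their constitutive counterparts ordered the 13 lines differently. PSMB5, the chymotrypsin-like site and main target of proteasome inhibitors, lay between 8.75 in P12-ICHIKAWA and 10.27 in Jurkat in T-ALL, with a median of 9.33, against 9.50 in RS4,11 to 10.32 in Nalm16 in BCP-ALL, with a median of 9.82. ALL-SIL (8.92) and TALL-1 (8.86) were close to P12-ICHIKAWA at the low end. PSMB6, the caspase-like site, was 9.41 in ALL-SIL and between 10.21 and 10.83 in the other T-ALL lines, against 10.01 to 10.85 in BCP-ALL. PSMB7, the trypsin-like site, was highest in Jurkat (11.33) and lowest in P12-ICHIKAWA (10.15) and TALL-1 (10.23) among T-ALL lines, whereas BCP-ALL lines lay between 10.32 and 10.76. The lineage differences were -0.52 for PSMB5 (95% interval -1.10 to 0.06, adjusted p = 0.240 by limma), -0.12 for PSMB6 (adjusted p = 0.776) and 0.15 for PSMB7 (adjusted p = 0.649), and none passed.

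**Figure D2:**
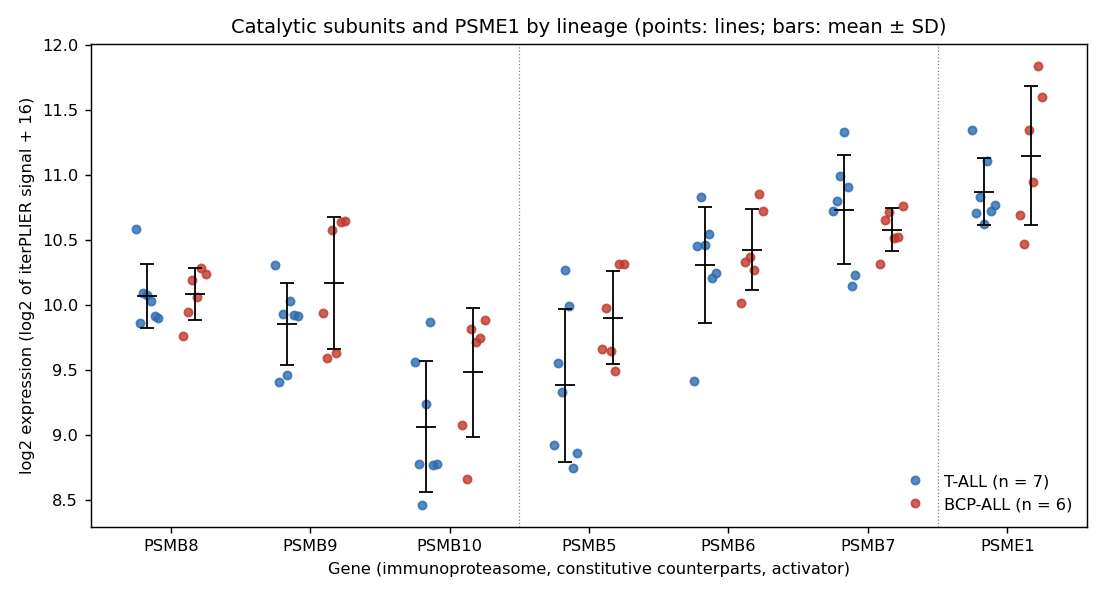
Log2 expression (vertical axis) of the immunoproteasome subunits, their constitutive counterparts and PSME1, with 1 point per cell line, T-ALL in blue and left of BCP-ALL in red, and bars for the mean and SD of the lineage. The lineages overlap for all 7 genes, and levels of different genes are not comparable.

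To set both groups of catalytic subunits side by side within a line, each gene was expressed as its difference from its own mean over the 13 lines and the differences were averaged over PSMB8, PSMB9 and PSMB10, and over PSMB5, PSMB6 and PSMB7. ALL-SIL combined a high immunoproteasome mean (0.37) with the lowest constitutive mean of all lines (-0.53), a gap of 0.90. Jurkat was the opposite case, with -0.19 for the immunoproteasome and the highest constitutive mean (0.47), a gap of -0.65. CCRF-CEM (-0.48), Nalm6 (-0.48) and HPB-ALL (-0.45) had gaps in the same direction as Jurkat, and REH (0.39) one in the direction of ALL-SIL. Nalm16 and Nalm30 were high in both groups (0.44 and 0.48 for the immunoproteasome, 0.35 and 0.39 for the constitutive subunits), so that their gaps were 0.10 and 0.09. Over the lineages the gap averaged -0.04 ± 0.54 in T-ALL (SD, n = 7) and 0.05 ± 0.29 in BCP-ALL (SD, n = 6), a difference of -0.09 that is smaller than either SD. The single pairs differed in sign. PSMB8 against PSMB5 gave 0.51 between the lineages, PSMB9 against PSMB6 gave -0.20 and PSMB10 against PSMB7 gave -0.57. In this order their SDs were 0.66, 0.67 and 0.55 in T-ALL and 0.30, 0.36 and 0.47 in BCP-ALL. The lineages overlapped for each pair, and no pair was tested.

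The closest companion of the immunoproteasome subunits was the activator subunit PSME1. Its level lay between 10.63 in Jurkat and 11.34 in ALL-SIL in T-ALL, with a median of 10.77, against 10.47 in Nalm6 to 11.84 in Nalm16 in BCP-ALL, with a median of 11.14, and the difference of -0.27 (-0.14 without Nalm16) did not pass (adjusted p = 0.464 by limma). Of all 41 other members it was the one with the highest Pearson correlation with PSMB8 (0.733), PSMB9 (0.892) and PSMB10 (0.769) over the 13 lines. For PSMB9 the value was 0.827 within T-ALL, 0.902 within BCP-ALL and 0.813 without Nalm16 and Nalm30, which are also the lines farthest from the median of PSMB9. Spearman's rho over all lines was 0.841. Among themselves the immunoproteasome subunits correlated less closely, at 0.616 for PSMB8 with PSMB9, 0.613 for PSMB9 with PSMB10 and 0.570 for PSMB8 with PSMB10. With the subunit it replaces, PSMB8 correlated at 0.083, PSMB9 at 0.110 and PSMB10 at 0.147 over the 13 lines, but the lineages gave different values. PSMB9 and PSMB6 correlated at -0.540 within T-ALL and 0.702 within BCP-ALL, PSMB8 and PSMB5 at -0.117 within T-ALL and 0.546 within BCP-ALL, and PSMB10 and PSMB7 at 0.296 within T-ALL and 0.324 within BCP-ALL. Without Nalm16 and Nalm30, the values over the remaining lines were -0.342 for PSMB9, -0.175 for PSMB8 and 0.175 for PSMB10. All these values are descriptions over lines that share an array platform and include pairs with much alike arrays.

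IRF1, which mediates much of the response to interferon gamma, ran in parallel with the immunoproteasome subunits. It was singled out after its values had been seen, among 14 measured genes of a list of interferon regulators. Its log2 level was lowest in CCRF-CEM (7.95), with ALL-SIL highest (9.29) in T-ALL, against a lowest value in Nalm6 (7.83) and highest values in REH (9.68), Nalm30 (9.44) and Nalm16 (9.34) in BCP-ALL. The lines high in IRF1 were thus those high in PSMB9. The Pearson correlation of IRF1 with the mean of the 3 subunits was 0.877 over 13 lines (rho 0.852), 0.773 within T-ALL, 0.972 within BCP-ALL and 0.831 without Nalm6 and CCRF-CEM, the lines farthest from the median of IRF1. Of the 12560 genes, 4 (0.0318%) had a value at least as high, namely PSME1 (0.932), PSMB10 (0.90), which is part of the mean, TBC1D9 (0.896) and IRF1 itself. The lineage difference of IRF1 was -0.20 (adjusted p = 0.740 by limma). The next highest of the list was IFNGR2, a subunit of the interferon gamma receptor, with 0.597 (rho 0.736), a value that 4.33% of all genes tested reached. It was 0.261 within T-ALL, 0.845 within BCP-ALL, where Nalm6 lay at the floor (4.0), and 0.464 without Nalm16 and Nalm30. IRF2 (0.50), IRF3 (0.479) and IRF9 (0.469) followed, and the lowest was IFNAR1 (-0.370). NLRC5, the coactivator of MHC class I genes, gave -0.301. TAP1, the peptide transporter gene that is transcribed away from the neighbouring start of PSMB9, correlated with PSMB9 at 0.409.

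**Figure D3:**
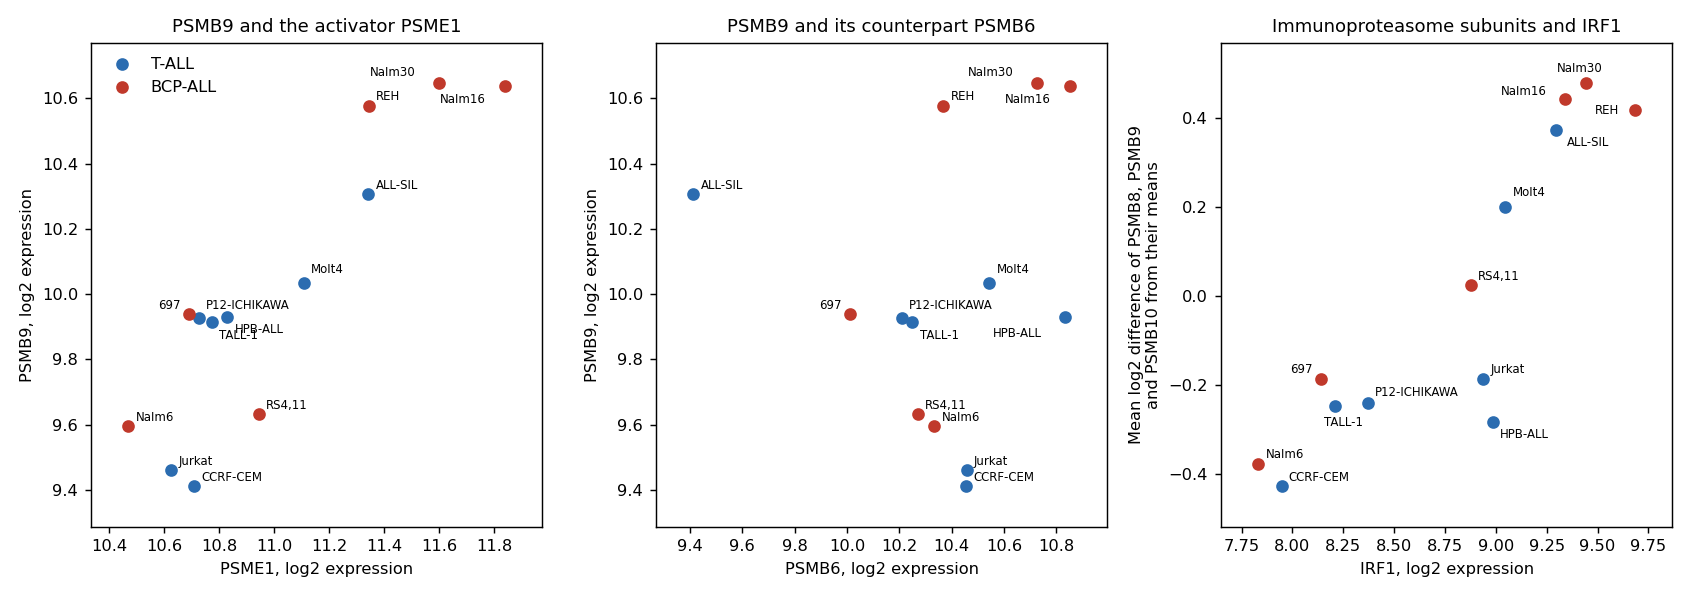
Log2 expression of PSMB9 against PSME1 (left) and against PSMB6 (middle), and the mean log2 difference of PSMB8, PSMB9 and PSMB10 from their own means against the log2 expression of IRF1 (right), with 1 point per cell line, T-ALL in blue and BCP-ALL in red. The Pearson correlation is 0.892 on the left, 0.110 in the middle and 0.877 on the right.

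Outside the members, the genes most like each immunoproteasome subunit over the 13 lines had Pearson correlations of 0.837 to 0.946. For PSMB8 they were EXOC3 (0.887), TBC1D9, EDC3, ABHD17A and TMEM203, for PSMB9 RAB42 (0.873), ZNF362, SIPA1L3, DCAF7 and TRAPPC6A, and for PSMB10 PRKAG2-AS1 (0.946), GSDMD, GCSIR, OTUD7A and TRIR. No gene stood in more than 1 of these lists. With 12560 genes compared over 13 lines, high values arise for many genes, and they are given as a description of pattern.

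The genes that display immunoproteasome products differed between the lineages where the subunits did not pass the test. Of 15 measured genes of class I antigen processing, 6 were called lower in T-ALL, against 3.67% of all genes, and 0 higher, against 3.96%, and the median difference was -0.28, against 0.03 over all genes tested. The 6 were the class I heavy chain genes HLA-B, HLA-C, HLA-E, HLA-F and HLA-G and the peptide-loading chaperone PDIA3. HLA-B averaged 10.21 ± 0.84 in T-ALL (SD, n = 7) and 11.75 ± 0.16 in BCP-ALL (SD, n = 6), with a difference of -1.53 (adjusted p = 0.0131 by limma), and PDIA3 differed by -0.94 (adjusted p = 0.0385). Each of these 6 calls was lost under at least 1 alternative, such as averaging P12-ICHIKAWA with TALL-1 and Nalm16 with Nalm30. ERAP2, which trims peptides for class I, had the largest difference of the list and in the other direction (2.23, adjusted p = 0.135 by limma), and did not pass. Transcripts of class I heavy chains are so alike that their probe sets may read several of these genes. TAP1, TAP2 and the shared light chain B2M did not pass. Of the interferon regulators, IRF7 was called lower in T-ALL (-1.54, adjusted p = 0.00459 by limma) and the type I receptor subunit IFNAR1 higher (0.77, adjusted p = 0.0436).

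Of the other regulators of the core, PSME3, which forms the nuclear 11S activator, lay between 9.23 and 10.52 in T-ALL, against 9.52 to 10.18 in BCP-ALL (difference -0.28, adjusted p = 0.433 by limma). PSME4, the activator known as PA200, and PSMF1, an inhibitor of the core, moved in opposite directions in Nalm16 and Nalm30. PSME4 had 7.64 to 8.60 in T-ALL, and in BCP-ALL 6.82 in Nalm16 and 6.89 in Nalm30, against 8.13 to 9.0 in the other BCP-ALL lines. PSMF1 had 8.94 to 10.05 in T-ALL, and in BCP-ALL 10.33 in Nalm16 and 10.50 in Nalm30, against 8.42 to 9.26 in the other lines of this lineage. The lineage difference was 0.11 for PSME4 and 0.03 for PSMF1, with adjusted p = 0.884 and 0.965 by limma.

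PSMA8, which in mammals is known as the alpha subunit of the testis proteasome and replaces PSMA7 there, was present in few lines. CCRF-CEM had 8.11 and Jurkat 8.13, and P12-ICHIKAWA and TALL-1 had 5.35 and 5.71. The other 3 T-ALL lines had 4.36 to 4.44, and all 6 BCP-ALL lines lay between 4.0 and 4.82, so that 9 lines were near the floor. Its SD over all lines (1.40) was the highest of the members. The lineage difference of 1.38 had a 95% interval of -0.01 to 2.76 and did not pass (adjusted p = 0.199 by limma). PSMA8 had a single probe set.

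Of the standard alpha subunits, all 6 measured had a higher mean in T-ALL, with differences of 0.25 to 0.54, and the direction of all 6 was the same under every alternative tried. None passed the test after adjustment, and PSMA5, PSMA1 and PSMA2 had an unadjusted p under 0.05. PSMA5 had 10.12 to 10.81 in T-ALL, with a median of 10.32, against 9.62 to 10.20 in BCP-ALL, with a median of 9.83 (difference 0.47, SE 0.16, adjusted p = 0.0935 by limma). PSMA1 had 11.03 to 11.42 in T-ALL, against 10.96 to 11.20 in 4 BCP-ALL lines, 10.46 in Nalm16 and 10.64 in Nalm30 (difference 0.38, adjusted p = 0.133). PSMA2 was level at 11.12 to 11.54 in T-ALL, whereas in BCP-ALL it was 11.17 to 11.21 in 697, Nalm6 and REH and 10.03 to 10.40 in RS4,11, Nalm16 and Nalm30 (difference 0.54, adjusted p = 0.133). For PSMA1 and PSMA2 the gap between lineages was thus carried largely by part of the BCP-ALL lines. The difference of PSMA5 ran between 0.39 and 0.53 over the alternatives. PSMA7 differed by 0.34 (adjusted p = 0.202). Without Nalm16 and Nalm30 the 6 differences lay between 0.06 and 0.43.

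The remaining beta subunits were among the steadiest members. PSMB1 and PSMB3 had an SD over the 13 lines of 0.21 and 0.24, and their lineage differences were 0.07 and -0.02. PSMB4 differed by -0.07. PSMB2 had 10.94 to 11.63 in T-ALL, with Jurkat (11.62) and Molt4 (11.63) highest, against 10.49 to 10.94 in BCP-ALL, with a difference of 0.44 (SE 0.16, adjusted p = 0.113 by limma).

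Most 19S genes had a higher mean in T-ALL, and none passed. Of 14 measured 19S subunits, 12 had a positive difference, against 6659 of all 12560 genes tested. The median was 0.19, against 0.03 over all genes, and 0 were called, against 7.63%. PSMD1, PSMD2 and PSMD6 turned negative under at least 1 alternative, and PSMC1 and PSMD3 turned positive. The ATPase PSMC2 had 10.48 to 11.15 in T-ALL, against 9.92 to 10.74 in BCP-ALL (difference 0.47, adjusted p = 0.120 by limma). PSMC6, another ATPase of the base, had 10.04 to 10.65 in T-ALL, and in BCP-ALL 8.77 in Nalm16, 9.19 in Nalm30 and 9.69 to 10.53 elsewhere (difference 0.48, adjusted p = 0.292). PSMC3 and PSMC4 differed by 0.18 and 0.14. PSMD14, the deubiquitinase of the lid, had 9.97 to 10.57 in T-ALL, and in BCP-ALL 8.97 in Nalm16, 9.41 in Nalm30 and 9.78 to 10.36 elsewhere (difference 0.43, adjusted p = 0.270). PSMD12, a scaffold subunit of the lid, was 7.50 in Nalm16 and 8.87 in Nalm30, against 9.09 to 9.96 over all other lines, and it differed by 0.46 between the lineages (adjusted p = 0.386). Without Nalm16 the difference was 0.27 for PSMC6, 0.25 for PSMD14 and 0.15 for PSMD12. PSMD11 and PSMD1 differed by 0.32 and 0.28. PSMD8, a subunit of the lid, varied least of all members, with an SD of 0.14.

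Among the chaperones was the member with the smallest p-value. PSMD10, also known as gankyrin and a chaperone of the 19S base, had 9.59 to 10.03 in T-ALL with a median of 9.80, against 8.63 to 9.78 in BCP-ALL with a median of 9.17. Nalm16 (8.63) and Nalm30 (8.69) were lowest and REH (9.78) was the single BCP-ALL line inside the T-ALL range. The difference was 0.65 (SE 0.19, 95% interval 0.24 to 1.07), with adjusted p = 0.0561 by limma. It passed in 2 of 23 alternative fits, without REH (adjusted p = 0.0173 by limma) and after median centring (0.0338). Without Nalm16 and Nalm30 its adjusted p was 0.190 by limma, the largest of these fits. PSMG1, which with PSMG2 starts the assembly of the alpha ring, went the other way, with 10.09 to 10.80 in T-ALL, against 10.31 to 11.30 in BCP-ALL (difference -0.52, SE 0.18, adjusted p = 0.0999 by limma). PSMG1 passed in 1 of 23 alternative fits, without 697 (adjusted p = 0.0398 by limma), and its adjusted p rose to as much as 0.331 in the others. PSMG3, a partner in the same process, had 8.31 to 9.85 in T-ALL and 6.92 to 9.08 in BCP-ALL, with Jurkat (9.85) highest and Nalm16 (6.92) lowest (difference 0.69, adjusted p = 0.261, and 0.43 without Nalm16). PSMD9, a chaperone of the base, differed by -0.32 (adjusted p = 0.279), and PSMG4 by 0.01 with an SD of 0.25 over the lines. PSMD5, another chaperone of the base, had 7.78 to 8.54 in T-ALL, against 6.94 to 8.32 in 5 BCP-ALL lines and 4.0, the floor, in 697 (difference 0.88, adjusted p = 0.352 by limma, and 0.24 with adjusted p = 0.581 without 697). Its other probe set was near the floor in all 13 lines and gives no second reading.

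**Figure D4:**
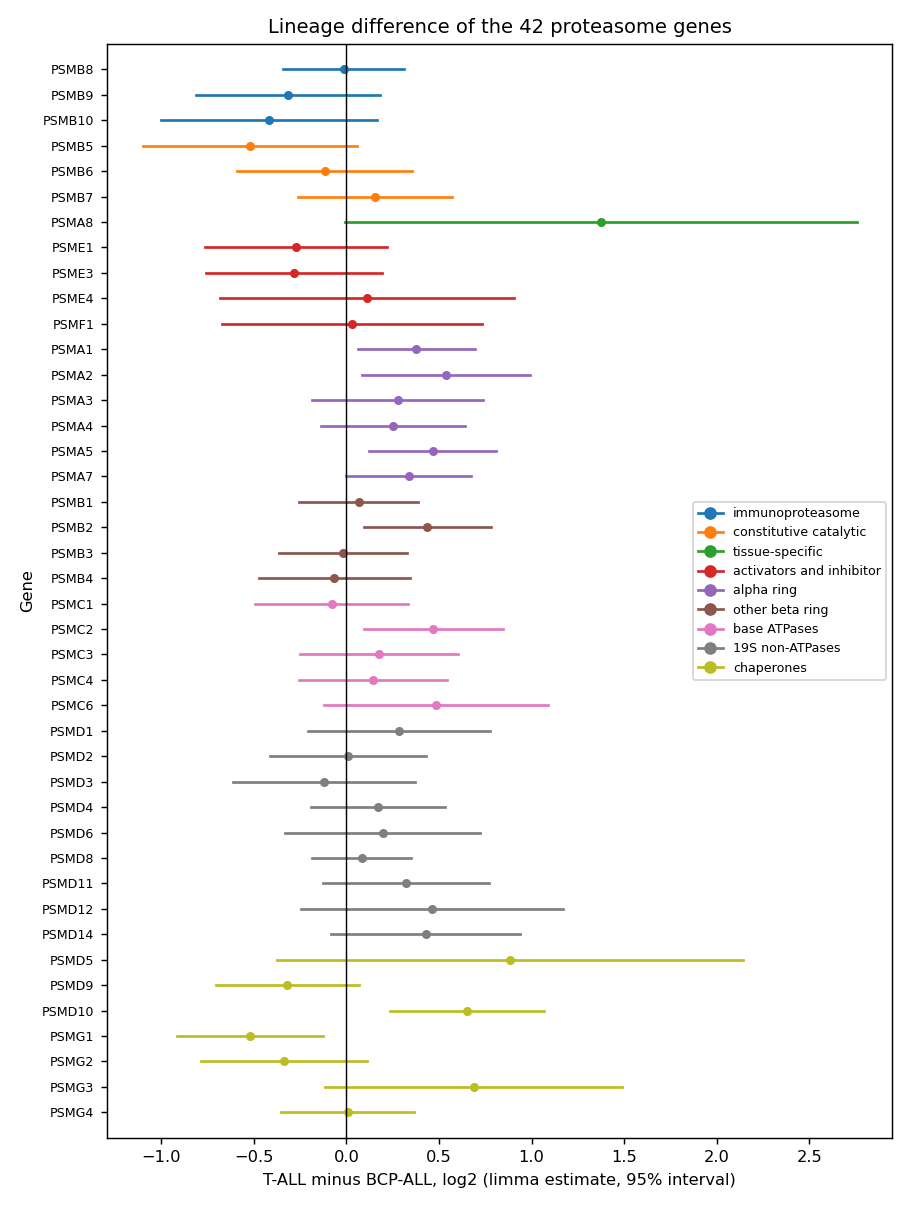
Difference in mean log2 expression between T-ALL and BCP-ALL (horizontal axis, limma estimate with its 95% interval) for each of the 42 genes, colored by role. Estimates run between -0.52 for PSMG1 and 1.38 for PSMA8, all 6 alpha ring genes are positive and all 3 immunoproteasome genes are at or below 0, and no gene was called after adjustment.

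Counted over all members, 0 of 42 genes were called by limma, against 7.63% of all genes tested (3.96% higher and 3.67% lower in T-ALL). At an unadjusted p under 0.05 there were 7 (16.7%), against 25.3% of all genes, and of these 6 were higher and 1 lower in T-ALL, against 15.1% and 10.1% of all genes. The ranges of the lineages overlapped for all 42, whereas they did not overlap for 3.69% of all genes. The difference was positive for 28 members and negative for 14, against 6659 and 5901 of all genes tested. The median was 0.15, where all tested genes had 0.03. Over the alternatives the median of the members was lowest without Jurkat (0.066) and without Nalm16 and Nalm30 (0.069). It was highest (0.22) with P12-ICHIKAWA and TALL-1 averaged and Nalm16 and Nalm30 averaged. After quantile normalization 24 members were positive and 18 negative. The members also varied less from line to line than most genes, their median SD being 0.39, where all tested genes had 0.52. Of 14 measured partners without a PSM symbol, such as the maturation factor POMP, 0 were called. Of 9 measured regulators of proteasome genes 1 was called, STAT3, higher in T-ALL by 1.42 (adjusted p = 0.0185 by limma).

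Some single lines stood out. The members of a line were read from 1 array, so the counts that follow are descriptions without a test. Jurkat held the highest value of the 13 lines for 16 of 42 members (38.1%), against 8.68% of all genes tested, and the lowest for 0, against 2.99%. The median difference of its members from their means was 0.43, where all tested genes had a median of 0.12. With every array centred on its median, Jurkat was highest for 14 members (33.3%, against 5.38%). Molt4 was highest for 6 (14.3%, against 8.55%) and lowest for 0, against 5.6%. The immunoproteasome subunits did not share the high values of Jurkat, where PSMB9 was 0.54 below its mean and PSMB8 and PSMB10 within 0.03 of theirs. Line 697 was lowest for 10 members (23.8%, against 9.75%). The median difference of its members was -0.25, where all tested genes had -0.04. Their average was -0.28, which includes PSMD5 at the floor.

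**Figure D5:**
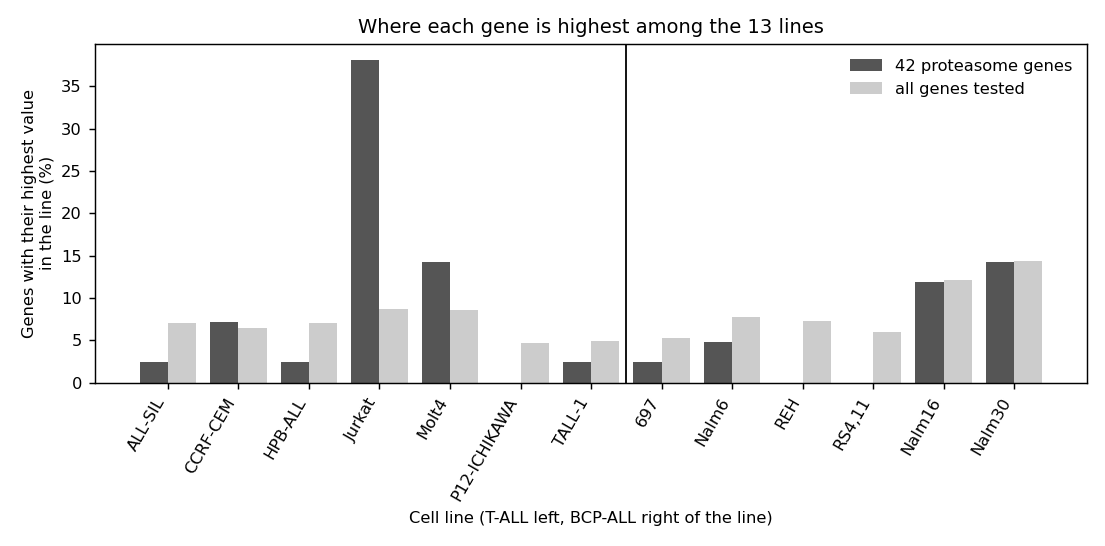
Share of genes (vertical axis, percent) whose highest value among the 13 cell lines lies in each line, for the 42 proteasome genes (dark bars) and for all genes tested (light bars), with T-ALL left and BCP-ALL right of the vertical line. Jurkat holds 38.1% of the proteasome genes and 8.68% of all genes.

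Nalm16 and Nalm30 were set apart in both directions. Both lay below every other line for 13 members (31.0%, against 20.5% of all genes tested), namely PSMA1, PSMA3, PSMA4, PSMA7, PSMA8, PSMC2, PSMC6, PSMD1, PSMD10, PSMD11, PSMD12, PSMD14 and PSME4. Of these, PSMA8 was near the floor in both lines, where values carry no order. Both lay above every other line for 7 (16.7%, against 12%), namely PSMB3, PSMB5, PSMB9, PSME1, PSMF1, PSMG1 and PSMG2. The low group thus held subunits of the alpha ring and the 19S cap, but also PSMD10 and PSME4. The high group mixed PSMB9 and PSME1 with the constitutive PSMB5 and with PSMB3, PSMF1, PSMG1 and PSMG2. Neither share was tested against that of all genes. PSMG2, for example, had 10.49 to 10.88 in T-ALL, and in BCP-ALL 11.69 in Nalm16, 11.65 in Nalm30 and 10.39 to 10.94 elsewhere. The array of Nalm16 had the lowest median of all (5.05) and was lowest for 27.7% of all genes tested, close to the 33.3% of members for which it was lowest, and the part of array scaling in these shifts was not tested. P12-ICHIKAWA and TALL-1 lay together below every other line for PSMB5, PSMB7 and PSMG1 (7.14%, against 5.47% of all genes tested), and above for 0 members, against 5.63%.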

How the data were processed

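Total RNA of 13 untreated cell lines was hybridized to HG-U133 Plus 2.0 arrays, 1 per line. The authors deposited log2 values of the iterPLIER signal plus 16, made with Affymetrix Expression Console (version not given in the sources used here). No source used here gives the scaling between arrays, and the labels and the methods differ on culture time and RNA kit. Of 42450 probe sets, 38125 carried 1 gene symbol in the platform annotation, and the probe set with the highest mean represented each of 18568 genes. Of the members, 21 had 1 probe set, and of 22 other member probe sets with a mean above 6, 19 gave the same direction between lineages.

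Lineages were compared by limma 3.58.1 in R 4.3.3 (lmFit and eBayes, two-sided) over the 12560 genes above the median of their array in at least 3 lines, with Benjamini-Hochberg adjustment at 0.05. On simulated data with these 12560 genes, the fit recovered 41 of 100 genes changed by 1 log2 unit and 83 of 100 changed by 2. It also called 9 unchanged genes. The simulated lines were independent of each other, unlike pairs such as P12-ICHIKAWA and TALL-1, so recovery in the real data may differ. Correlations, motif counts and differences from gene means were computed in Python 3.11.15 (numpy 2.4.6, pandas 2.3.3) as descriptions without a test, and plots drawn with matplotlib 3.10.9. Named genes were the catalytic subunits, activators, inhibitor and PSMA8, the 4 members with the smallest p of each other role, the 5 members with the largest and smallest SD, the 5 genes closest to each immunoproteasome subunit, and called genes of the related lists. Other members were named after their values were seen. The members and lists were chosen with earlier results of these data known. Alternatives covered the filter, quantile normalization, median centring, the choice of probe set, the variance model and each line left out. Also averaged were lines with much alike arrays, P12-ICHIKAWA with TALL-1, and in a further fit Nalm16 with Nalm30 as well. Leaving out Nalm16 with Nalm30, and P12-ICHIKAWA with TALL-1, was added after seeing the data.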

Additional observations from a re-analysis of the deposited data

Results flagged for a closer look

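Single lines stood apart from the rest of their lineage for 4 members, by the gap to the nearest line as a share of the range (Dixon's criterion). With 84 groups tested (42 genes in each lineage), chance alone would flag about 1 in 20, and the 4 flags are near that share. PSMB8 was 10.59 in ALL-SIL, with the next T-ALL line at 10.09. PSMD3, a subunit of the 19S lid, was 10.07 in Molt4, with the next T-ALL line at 9.38, whereas Nalm6 of BCP-ALL had 10.16. PSMD8 was 10.68 in Jurkat, with the next T-ALL line at 10.52. PSMD5 was 4.0 in 697, with the next BCP-ALL line at 6.94. No cause was tested for any of them.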

How the results depend on the processing

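The call of 0 proteasome genes became 1 after median centring (PSMD10), and with each line left out in turn the count ran between 0 and 1 (PSMG1 without 697, PSMD10 without REH). The 958 genes called over the whole table became 610 with P12-ICHIKAWA and TALL-1 averaged, 472 with Nalm16 and Nalm30 averaged as well, 435 without both P12-ICHIKAWA and TALL-1, and 609 to 1223 with 1 line left out (609 without TALL-1, 629 without P12-ICHIKAWA, 1223 without REH). The lineage difference of the gap between immunoproteasome and constitutive subunits, -0.09, ran between -0.245 and 0.0144 with 1 line left out (-0.245 without ALL-SIL, 0.0144 without Jurkat), and it could not be formed with the most variable probe set, where PSMB7 failed the filter. Quantile normalization moved the median difference over all genes to -0.0467, against 0.0337.

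Of 965 refitted differences of members, 66 changed sign, all of them in genes that passed in no fit. With P12-ICHIKAWA and TALL-1 averaged the difference was 0.0116 for PSMB8, and with Nalm16 and Nalm30 averaged as well 0.0477 for PSMB8, 0.0708 for PSMB3, 0.0358 for PSMB4, 0.0191 for PSMC1 and -0.137 for PSME4. Without Nalm16 and Nalm30 it was -0.000426 for PSMB1, 0.18 for PSMB3, 0.0519 for PSMB4, 0.0631 for PSMB6, 0.0754 for PSMB8, 0.0103 for PSMC1, -0.0206 for PSMD6, 0.0114 for PSME1 and -0.493 for PSME4. Without P12-ICHIKAWA and TALL-1 it was 0.00749 for PSMB3, 0.0650 for PSMB4, 0.0487 for PSMB8 and 0.0711 for PSMC1. Quantile normalization gave -0.0566 for PSMD2, -0.0488 for PSME4, -0.0405 for PSMF1 and -0.0973 for PSMG4, and median centring -0.00909 for PSMD2 and -0.00878 for PSMG4. The mean of probe sets gave 0.0494 for PSMB4 and -0.0320 for PSMG4, and the most variable probe set 0.49 for PSMB4, -0.0143 for PSMD1, 0.0465 for PSMD9, 0.11 for PSME3 and -0.216 for PSMG4.

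With 1 line left out at a time, these differences ran between -0.0100 and 0.120 for PSMB1, -0.0917 and 0.0770 for PSMB3, -0.205 and 0.0315 for PSMB6, -0.102 and 0.0255 for PSMB8, -0.192 and 0.00515 for PSMC1, -0.0856 and 0.113 for PSMD2, -0.246 and 0.0238 for PSMD3, -0.138 and 0.297 for PSME4, -0.168 and 0.249 for PSMF1, and -0.0587 and 0.0896 for PSMG4. The causes were not tested. Of the called genes of related lists, HLA-B, HLA-C, HLA-E, HLA-G, STAT3 and IRF7 passed whichever single line was left out. Under the other 10 alternatives, however, the call was lost in 2 for HLA-B, 3 for HLA-C, 4 for HLA-E (adjusted p of up to 0.341 by limma, with the most variable probe set), 4 for HLA-F, 3 for HLA-G, 5 for PDIA3, 1 for STAT3 and 7 for IFNAR1, and IRF7 alone kept it in all. HLA-F lost its call without 697, Nalm16, Nalm30, CCRF-CEM, Jurkat, P12-ICHIKAWA or TALL-1 (adjusted p of up to 0.0629 by limma). PDIA3 lost it without Nalm6, RS4,11, Nalm16, Nalm30, ALL-SIL, HPB-ALL, P12-ICHIKAWA or TALL-1 (up to 0.0790 by limma), and IFNAR1 without any line but Nalm6, REH or Molt4 (up to 0.0938 by limma).

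No paired analysis was possible because each line has 1 array and the lineages share no lines. Technical error could not be estimated from single arrays, and precision is limited by how many lines were measured. Values of PSMA8 and of PSMD5 in 697 near the floor carry no order.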

Other observations

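Outside the proteasome itself, UBQLN2, which shuttles ubiquitinated substrates to the cap, followed the immunoproteasome subunits over the 13 lines (Pearson 0.768 with their mean, 0.812 within T-ALL and 0.750 within BCP-ALL), and it fell to 0.597 without Nalm16 and Nalm30. UCHL5, a deubiquitinase of the cap, was 9.25 to 9.62 in T-ALL, and in BCP-ALL 6.76 in Nalm16, 7.08 in Nalm30 and 8.92 to 9.71 elsewhere, the same low pair as for PSMD14. SOCS1, an inhibitor of interferon signaling, was 9.82 in ALL-SIL and 4.07 to 7.0 in every other line. ALL-SIL was also the line with the widest gap between immunoproteasome and constitutive subunits. Over the 13 lines, however, SOCS1 did not follow the mean of the immunoproteasome subunits (Pearson 0.103, rho -0.027). The Pearson value was 0.691 within T-ALL and -0.528 within BCP-ALL. It was 0.511 without Nalm16 and Nalm30 and -0.365 without ALL-SIL and HPB-ALL. These genes were chosen after their values were seen, and no test was made.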
